A study of Drosophila melanogaster with 6 samples.

Results

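IM33 and IM18 are genes for small secreted peptides, 2 of the 17617 genes listed for each library of a comparison between RasV12 and Control hindguts of Drosophila melanogaster. They were chosen by name, because IM33 held the highest value of any gene in a Control library, so the level and rank of IM33 in that library are a description and not a finding. RNA came from dissected adult hindguts and was read by QuantSeq 3′ mRNA sequencing, which reads each transcript near its 3′ end, in 3 libraries per genotype. RasV12 flies carried byn-Gal4, tub-Gal80ts, UAS-gfp and UAS-RasV12, and Control flies carried byn-Gal4, tub-Gal80ts and UAS-gfp without UAS-RasV12. Flies of both genotypes were reared at 18°C and kept as adults for 7 days at 29°C, where the temperature-sensitive Gal80 no longer holds back Gal4. The byn driver acts in hindgut enterocytes, whereas the sequenced tissue was the whole dissected piece, labelled as enterocytes and muscle, so a level is a mean over all of its cells.

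IM33 and IM18 take their names from a series of immune-induced molecules, peptides that were found in the hemolymph of flies after bacterial challenge. Many such peptides are made in the fat body under the Toll and Imd pathways, in which NF-kB factors switch on genes of secreted defence peptides, and epithelia such as the gut also make some of them under Imd. IM33 is a small protein of the Kunitz type, a fold best known from inhibitors of serine proteases, and IM18 is a short peptide of which less is known.

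The values are read counts per gene that the authors scaled by 1 factor per library and rounded, here called normalized counts. Library totals ran from 997131 to 1031380 in RasV12 and from 932389 to 1011488 in Control. The factors recovered from the whole numbers that occur put the reads on genes at 988982 to 1402435 in RasV12 and 686080 to 1048807 in Control, with the fewest in Control 1. Of 7155 genes tested between the genotypes, 1198 passed an adjusted p of 0.05 in limma, which is 16.7% of them, and the count was 795 without RasV12 1 and 642 without RasV12 2. Of 8 hindgut epithelium markers, 6 were tested, of which drm and hh were called higher in RasV12, byn, fkh and otp lower and cad neither way; hh was not called without RasV12 1 and otp not without RasV12 2 or Control 1, while en was at 0 throughout and Dr did not exceed 1. The hindgut regulator byn had 60 to 144 normalized counts in RasV12 against 283 to 450 in Control, and drm had 196 to 270 in RasV12 against 32 to 58 in Control. Summed muscle markers reached 3451 to 3729 in RasV12 and 9474 to 11014 in Control. In such bulk tissue, fewer cells of a type and less RNA per cell cannot be told apart.

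IM33 (FBgn0031561) lies on chromosome 2L on the minus strand, at 3696218 to 3696658 in the dm6 coordinates of the annotation. It is a protein-coding gene with 2 annotated transcripts, each of 2 exons and with the same open reading frame of 82 codons, which differ in the length of the 3′UTR (50 and 72 bp). The gene spans 441 bp, less than the 500 bp that the study's own filter on gene length asked for.

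IM33 was among the most abundant transcripts of the hindgut in both genotypes. It had 19958, 19533 and 26101 normalized counts in RasV12 1 to 3, and 25500, 13132 and 12713 in Control 1 to 3. Control 1 lay within the RasV12 range and the other Control libraries lay below it, so the genotypes overlapped. The means were 21864 ± 3675 in RasV12 and 17115 ± 7265 in Control (SD, n = 3 each), and the highest library exceeded the lowest 1.34-fold within RasV12 and 2.01-fold within Control. Over all 6 libraries the log2 difference was 0.42 (SE 0.26), which is given as a description because it includes the library that chose the gene.

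**Figure D1:**
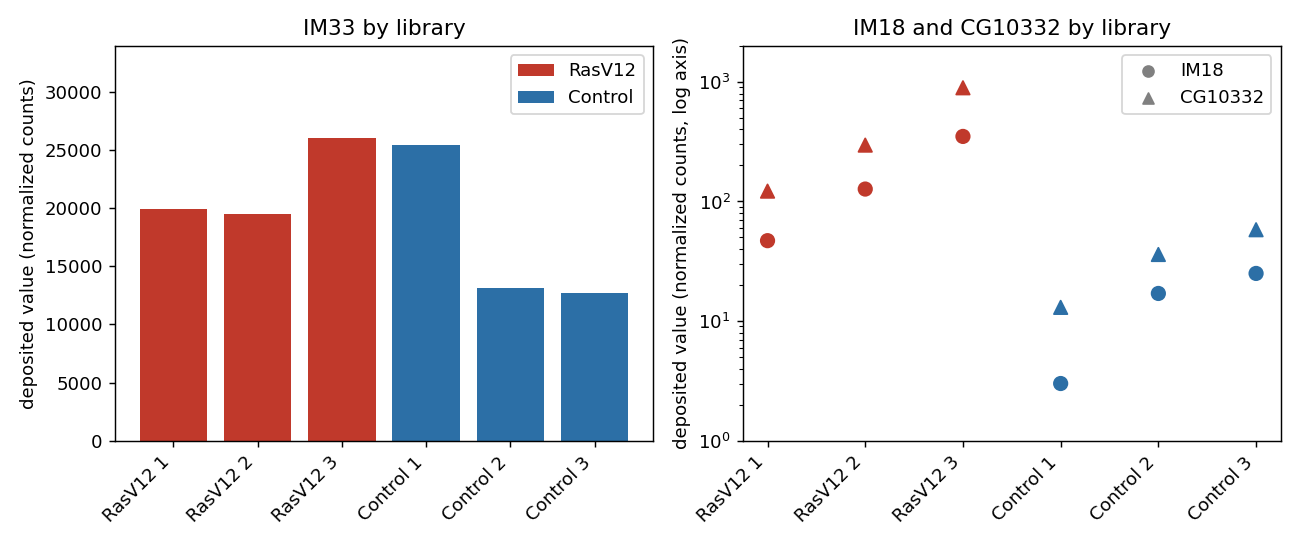
The left panel plots the normalized counts of IM33 in each library as bars from 0, with RasV12 in red and Control in blue; Control 1, at 25500, stands beside RasV12 3, at 26101, and above the other Control libraries. The right panel plots IM18 (circles) and CG10332 (triangles) in the same libraries on a log axis; every RasV12 point of a gene lies above every Control point of that gene, and the triangles follow the circles.

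In rank, IM33 held ranks 2, 3 and 2 among all genes in RasV12 1 to 3, and ranks 1, 5 and 6 in Control 1 to 3. It made up 2.00%, 1.94% and 2.53% of the library total in RasV12 and 2.64%, 1.41% and 1.26% in Control. The gene above it in each RasV12 library was CG42656 or CG34227. In Control 1 the next gene below it was the noncoding RNA lncRNA:CR40469 with 21506 normalized counts, and in Control 2 and 3 the first places were held by Vha16-1, a subunit of the vacuolar proton pump, with 16197, and by CG6409 with 30802. Of all genes, 1 had a higher RasV12 mean than IM33 and 2 had a higher Control mean. Dividing values by the length of the exons put IM33 at a lower place in each library. Per kb it ranked 6, 6 and 5 in RasV12 and 3, 7 and 9 in Control. Since reads come from near the 3′ end, the value per kb is an alternative and not a correction.

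**Figure D2:**
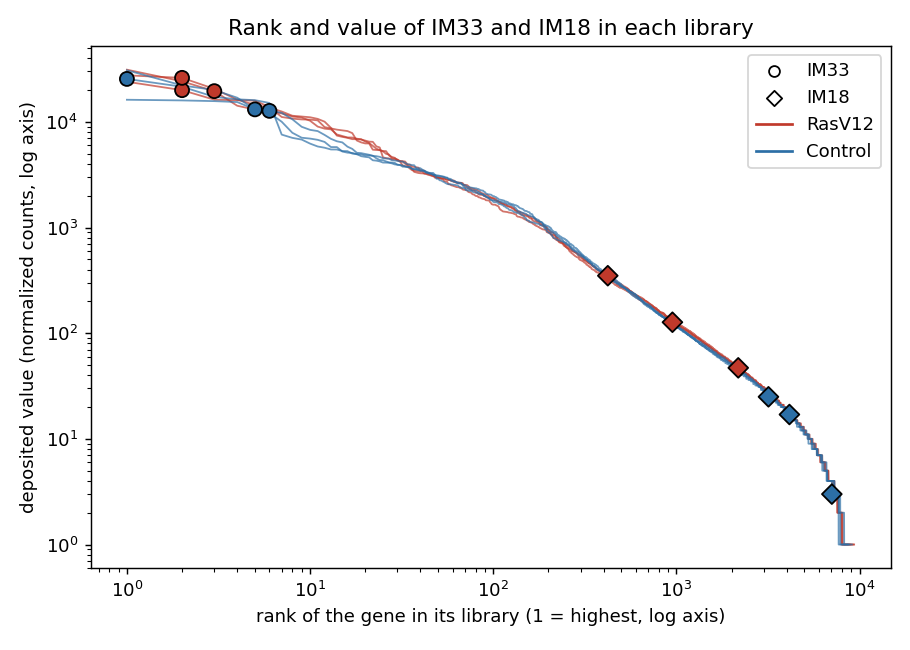
Each line ranks all genes of 1 library by normalized counts, with both axes on a log scale, RasV12 in red and Control in blue. Circles mark IM33, which sits at ranks 2 to 3 in RasV12 and 1 to 6 in Control, and diamonds mark IM18, at ranks 422 to 2175 in RasV12 and 3180 to 7055 in Control.

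With Control 1, the library that chose it, left out, IM33 was higher in RasV12 by 0.75 on the log2 scale (SE 0.21), or 1.68-fold, with an adjusted p of 0.0376 in limma over 6958 genes. RasV12 values were then above Control values in all 3 RasV12 libraries, and 7.55% of the genes tested in those 5 libraries were called higher. Leaving out the highest Control value raises the difference by construction, so the value of 0.75 stands beside that of 0.42 over all 6 libraries. The adjusted p and the lack of overlap depend on the same choice, so they are not evidence of a difference between the genotypes. With a further library left out, the call was kept without RasV12 1 (adjusted p 0.0323 in limma) and lost in the other 4 fits, with adjusted p in limma of 0.104 without RasV12 2, 0.118 without RasV12 3, 0.188 without Control 2 and 0.222 without Control 3. An exact permutation test of 3 against 2 gave a two-sided p of 0.2, the smallest that this design allows, so it could not pass 0.05.

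Of 8 markers of the Malpighian tubule, the excretory organ that joins the gut at the front of the hindgut, 3 were highest in Control 1. Alp4, an alkaline phosphatase of that tissue, had 33, 35 and 32 normalized counts in RasV12 1 to 3 and 353, 68 and 37 in Control 1 to 3. The zinc transporter gene ZnT35C had 1, 0 and 0 in RasV12 against 13, 2 and 0 in Control, and the transporter gene Oatp58Dc had 4, 4 and 4 against 20, 5 and 0. IM33 was likewise highest in Control 1 among the Control libraries. The other markers did not share this: the potassium channel gene Irk2 had 1437, 2730 and 2827 in RasV12 and 3759, 2420 and 3896 in Control, Lkr had 0, 0 and 1 in RasV12 and 1, 4 and 1 in Control, and Dh44-R2 had 2, 1 and 9 in RasV12 and 4, 6 and 0 in Control. The defining markers Uro and CapaR did not exceed 3 in any library. The 8 markers summed to 1478 to 2876 in RasV12 and 2506 to 4151 in Control, most of it from Irk2. In RasV12 3, where IM33 was highest of all, Alp4 had 32. The part of tubule RNA in the IM33 values was not tested.

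Fat body markers, from the main organ of hemolymph peptides, summed to 4240, 3804 and 5358 in RasV12 1 to 3 and to 5487, 10607 and 4068 in Control 1 to 3. The sum was highest in Control 2, where IM33 was near its lowest. Most of it there came from Yp1, Yp2 and Yp3, with 5113, 3562 and 1420. The larval fat body genes Fbp1, Lsp1alpha and Lsp1gamma were at 0 throughout. The part of fat body RNA in the IM33 values was not tested. Of the 7 tested fat body markers, Tsf1, an iron transport protein, was called higher in RasV12 and Yp1, Yp2, fon and CG31769 lower, the first 3 not without RasV12 1 or without RasV12 2, and Yp2, fon and CG31769 not without Control 2. Of all genes tested, 9.04% were called higher and 7.7% lower. Hemocyte markers summed to 82 to 103 in RasV12 and 41 to 94 in Control, with NimC1, NimC2 and eater at 0.

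IM33 sits in a row of short genes, and its nearest neighbours on both sides were highly expressed as well. CG3604, on the side of higher coordinates, had 10545, 11239 and 11057 normalized counts in RasV12 1 to 3 and 2265, 2135 and 2088 in Control 1 to 3. Its genotypes were far apart and its libraries were close within each, with a log2 difference of 2.34 (SE 0.17, adjusted p 1.06e-06 in limma). CG16713, on the other side, had 6395, 6847 and 7209 in RasV12 and 4959, 3925 and 4495 in Control. These groups also did not overlap, as for 17.7% of all genes tested, and the log2 difference was 0.62 (SE 0.18, adjusted p 0.0319 in limma). The call of CG16713 was lost without RasV12 2 (adjusted p 0.116), without RasV12 3 (0.109) and without Control 2 (0.114).

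Control 1 was the highest Control library for CG16713, but only by 1.26-fold over the lowest, whereas for IM33 the same ratio was 2.01. The value of IM33 divided by that of CG3604 was 1.89, 1.74 and 2.36 in RasV12 and 11.3, 6.15 and 6.09 in Control. Gene length cancels when this ratio is compared between libraries, and all RasV12 ratios were below all Control ratios. The pair was thus unequal in its change, with CG3604 higher in RasV12 and IM33 overlapping. This ratio was looked at after the values had been seen and was given no test.

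The other close neighbours were far lower. CG10031 had 176, 197 and 175 normalized counts in RasV12 and 83, 44 and 76 in Control, a log2 difference of 1.47 (SE 0.29, adjusted p 0.00325 in limma). CG43165 went the other way, with 53, 50 and 35 in RasV12 and 94, 99 and 72 in Control. Its log2 difference of −0.94 (SE 0.30, adjusted p 0.0463 in limma) lost the call in 5 of 6 fits that left out 1 library, all but that without Control 3, with adjusted p up to 0.165. The pseudogene CR43364 had 13, 23 and 21 in RasV12 and 22, 51 and 39 in Control and was not called (adjusted p 0.164 in limma), and CG42464 had a single normalized count, in RasV12 2. Further off, and chosen after their values were seen, CG3513 had 110, 71 and 94 in RasV12 against 17, 15 and 12 in Control, and CG16704 had 223, 177 and 186 against 101, 57 and 37. Acp24A4, between them and IM33, had 15, 7 and 10 in RasV12 against 14, 5 and 9 in Control and overlapped. Within 15 kb of IM33, a window set after values were seen, 14 of 19 genes were tested. Of these, 8 were called higher in RasV12, 1 was called lower and 5 were not called. Over all genes tested, 9.04% were called higher and 7.7% lower. Among the 8 called higher, CG42467 and CG43145 lay near the floor. CG42467 had 15, 6 and 5 in RasV12 and 0, 0 and 1 in Control, and CG43145 had 14, 9 and 5 against 0, 0 and 0. To be tested, a gene had to exceed 9 in at least 1 library, and both did so only in RasV12 1. They could enter the test only through the genotype in which they were called higher, so their calls are a description.

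**Figure D3:**
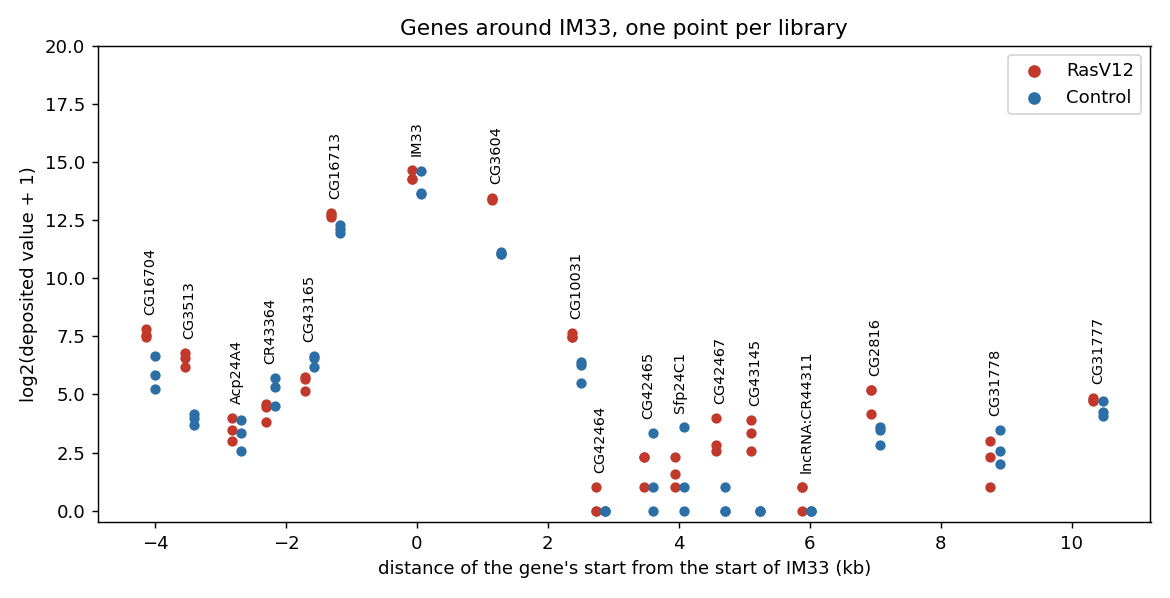
Each column of points is 1 annotated gene, placed by the distance of its start from the start of IM33 in kb, with log2(normalized counts + 1) on the vertical axis and 1 point per library, RasV12 in red left of Control in blue. IM33 and its neighbours CG16713 and CG3604 stand above the rest; CG16713, CG3604, CG10031, CG3513, CG16704, CG42467, CG43145 and CG2816 lie higher in RasV12 without overlap and CG43165 lower, and the points of IM33 overlap.

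IM18 (FBgn0067903) lies on chromosome 2R on the minus strand, at 23600914 to 23601773 in dm6 coordinates, and codes for 71 codons. Its longer transcript has 3 exons and 739 bp, the same exons as the single transcript of CG10332 (FBgn0260455), so that 1 messenger RNA carries both reading frames. The frame of CG10332, with 111 codons, comes first, and the IM18 frame falls within what is the 362 bp 3′UTR of CG10332. A second IM18 transcript is a single exon of 286 bp at the 3′ end. Reads from the 3′ end cannot tell these transcripts apart, and the study names a utr setting of metaseqR2 but not how reads on shared exons were divided, so the value of IM18 may hold transcripts of CG10332 and the other way round.

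IM18 was a low transcript in Control and a moderate one in RasV12. It had 47, 127 and 350 normalized counts in RasV12 1 to 3 and 3, 17 and 25 in Control 1 to 3. Every RasV12 library was above every Control library, as for 17.7% of the genes tested, but the values within a genotype spread widely, 7.45-fold in RasV12 and 8.33-fold in Control. At the recovered factors they correspond to about 66, 125 and 476 reads in RasV12 and 2, 19 and 19 in Control, so the Control 1 value rests on hardly any reads. The means were 175 ± 157 in RasV12 and 15.0 ± 11.1 in Control (SD, n = 3 each).

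IM18 was higher in RasV12 by 3.39 on the log2(value + 1) scale (SE 0.71), or 10.5-fold, with an adjusted p of 0.00507 in limma; 9.04% of all genes tested were called higher. IM18 is in the study's own list of changed genes from these libraries, so the test is not independent evidence. The log2 difference was lowest, at 2.58, without Control 1, and highest, at 4.10, without RasV12 1, and the call held with each library left out, at adjusted p of up to 0.0307 in limma. It was lost when the variance was not allowed to follow the mean (adjusted p 0.0611 in limma). An exact permutation test of 3 against 3 gave a two-sided p of 0.1, the smallest it can give. Of all genes tested, 85 had a larger log2 difference than IM18.

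CG10332 followed IM18 from library to library. It had 122, 296 and 893 normalized counts in RasV12 1 to 3 and 13, 36 and 58 in Control 1 to 3, again without overlap. Its log2 difference was 3.35 (SE 0.61, adjusted p 0.00217 in limma), and the summed value of both genes gave 3.39 (SE 0.63, adjusted p 0.00239 in limma). CG10332 held 2.60, 2.33 and 2.55 times the value of IM18 in RasV12 and 4.33, 2.12 and 2.32 times in Control. The ratio was thus close to even across 5 libraries, and the exception, Control 1, had the fewest reads of IM18. With shared exons, these values describe 1 locus and not a pair of independent genes.

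The other genes next to IM18 were silent or low. CG42559, CG42560, CG43209 and Eglp1 were at 0 in all 6 libraries. The transcription factor gene apt had 4, 6 and 7 normalized counts in RasV12 and 3, 0 and 4 in Control, too low to be tested. Eglp2, which codes for a glycerol channel of the aquaporin family, had 13, 7 and 14 in RasV12 and 17, 4 and 1 in Control and was not called (log2 difference 1.07, SE 0.76, adjusted p 0.370 in limma). Apart from CG10332, none of the 3 nearest genes on each side thus reached the level of IM18 in RasV12.

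IM18 ranked 2175, 951 and 422 among the genes of RasV12 1 to 3 and 7055, 4139 and 3180 among those of Control 1 to 3. Per kb of exon, IM33 had 51268 to 68507 normalized counts in RasV12 and 33367 to 66929 in Control, and IM18 had 63.6 to 474 in RasV12 and 4.06 to 33.8 in Control. The lower of the pair was thus the one that differed by genotype without overlap. Their order over the libraries also differed: within Control, IM33 was highest and IM18 lowest in Control 1, while both were highest in RasV12 3 within RasV12.

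The genes most like each of them were sought among 3940 tested genes with a mean of at least 20 normalized counts, by the root mean square difference between log2 profiles centred on their means over the 6 libraries. For IM33 the nearest was galectin, a gene for a sugar-binding lectin, at 0.148, against 0.642 for the median gene. It had 147, 145 and 161 normalized counts in RasV12 and 146, 98 and 88 in Control, so that Control 1 again matched RasV12. The next were ATP8A (0.153), a phospholipid flippase, PPP1R15 (0.164), a subunit that directs protein phosphatase 1 to the translation factor eIF2α, Torsin (0.168), an ATPase of the endoplasmic reticulum, and p (0.169), known as pink, which acts in the making of lysosome-related organelles. None of these 5 was called between the genotypes (adjusted p of 0.243 to 0.652 in limma), and all were far lower than IM33. They were picked for their likeness to IM33 over all 6 libraries, with Control 1, the library that chose IM33, among them. The match in Control 1 and the lack of calls thus follow in part from that choice. IM18 came only 3877th in that order, with a difference of 2.01.

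For IM18 the nearest was CG10332 at 0.241, which shares its exons, against 2.09 for the median gene. The next 4 were DptB (0.624), QC (0.846), DptA (0.873) and CG13116 (0.880). DptA and DptB are the diptericins, antibacterial peptides under Imd, and QC is glutaminyl cyclase, an enzyme that closes N-terminal glutamine into pyroglutamate. DptB had 265, 441 and 1161 normalized counts in RasV12 1 to 3 and 17, 59 and 35 in Control 1 to 3, with the same order as IM18 within RasV12 and with Control 1 lowest within Control. QC had 107, 109 and 144 in RasV12 and 8, 20 and 24 in Control. The likeness is a description over 6 libraries of 2 genotypes, so that genes higher in RasV12 by a similar amount tend to come near to IM18.

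In the list of Toll-induced peptides, more genes were called lower in RasV12 than higher. The list was fixed by name, and the induction of each of its genes by Toll was not tested here. Of the 17 tested genes of that list, 7 were lower in RasV12, 2 were higher and 8 were not called, with a median log2 difference of −1.25 against 0.02 for all genes tested, of which 7.7% were called lower. BaraA1, a precursor of several short hemolymph peptides, had 15, 22 and 32 normalized counts in RasV12 and 252, 183 and 71 in Control (log2 difference −2.70, SE 0.44, adjusted p 0.000869 in limma). BomS2, of the Bomanin family of short Toll-induced peptides, had 59, 50 and 43 in RasV12 and 490, 495 and 84 in Control (log2 difference −2.42, SE 0.52, adjusted p 0.00642 in limma). Drs, the antifungal peptide drosomycin, had 28, 66 and 45 in RasV12 and 87, 227 and 162 in Control (log2 difference −1.73, SE 0.39, adjusted p 0.00782 in limma). Without the variance trend, as for IM18, the calls of Drs (adjusted p 0.0643 in limma) and BomS2 (adjusted p 0.0705 in limma) were lost. The 2 that were higher were Mtk, which codes for the peptide metchnikowin, and BaraC, and neither was called without RasV12 2 or without RasV12 3. BaraC lost its call in 4 of the fits with 1 library left out. In the other alternatives, Mtk lost its call in 1 (adjusted p 0.0631 in limma) and BaraC in 2 (adjusted p 0.0661 and 0.144 in limma). The number called lower ran from 4, without RasV12 1 or without Control 2, to 11, without Control 3. The summed list was highest in Control 2, at 2665, as was the fat body sum, at 10607, and the part of fat body RNA in these values was not tested.

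Among the Imd-linked antimicrobial peptides, most genes were called higher in RasV12, as IM18 was. Of 12 tested, 8 were higher in RasV12, none was lower, also at an unadjusted p of 0.05, and 4 were not called in limma, where 9.04% of all genes tested were called higher and 7.7% lower. The median log2 difference was 4.69, or 4.05 with CecB, which was at 0 in all Control libraries, set to a floor of 3 counts per Control library. DptB and DptA, named above for their likeness to IM18, differed by 3.93 (SE 0.49, adjusted p 0.000136 in limma) and 4.16 (SE 0.41, adjusted p 1.74e-05 in limma) on the log2 scale. AttD, an attacin, had 1165, 1653 and 1269 normalized counts in RasV12 and 4, 3 and 5 in Control. To be tested, a gene had to exceed 9 in at least 1 library, and AttD, CecB and CecC did so only in RasV12. They could enter the test only through the genotype in which they were called higher. Their calls and their part in the median of 4.69 are thus a description. The share over all genes tested was taken under the same filter. The 4 that were not called were AttC, CecA1, CecA2 and Dro. The number called higher was 11 without Control 3 and stayed at 8 with any other library left out. The summed list reached 2503, 3647 and 4671 in RasV12 1 to 3, the same order as IM18, and 38, 375 and 260 in Control, where Control 1 was again lowest. Within RasV12, AttA, AttB, DptA, DptB, CecA1, Dro and Def each kept that order, and AttC, AttD, CecA2, CecB, CecC and edin did not. Within Control, AttA was lowest in Control 3 and AttD in Control 2. IM33, at 0.42, lay between the medians of these lists.

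**Figure D4:**
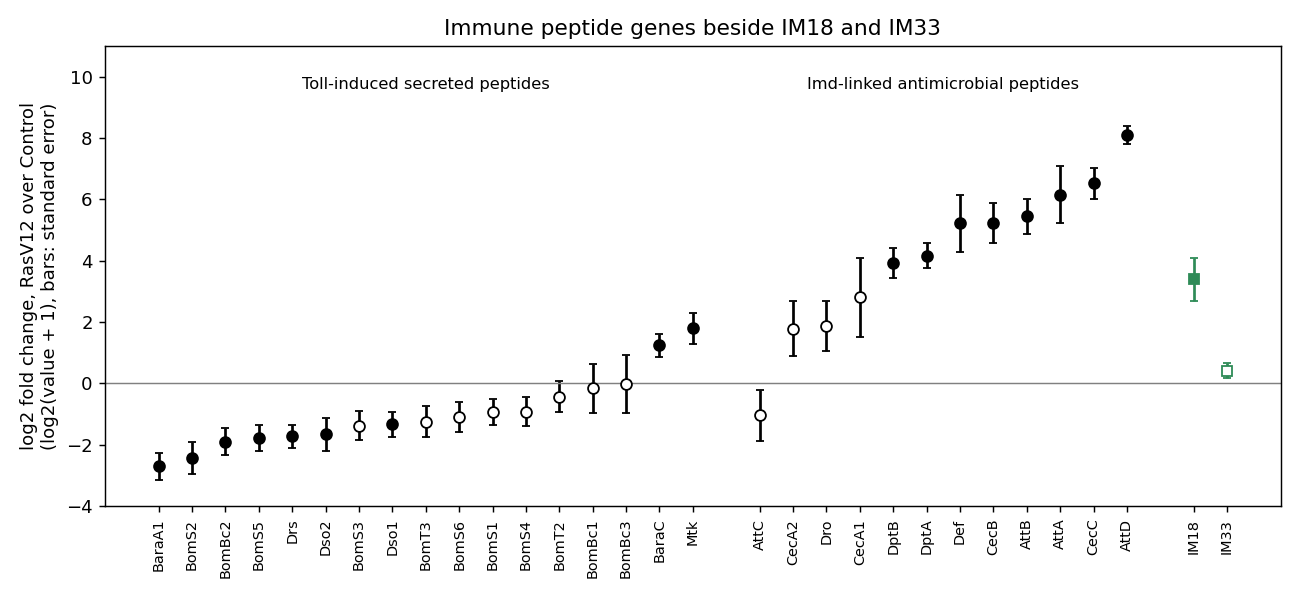
Points give the log2 difference of each tested peptide gene, RasV12 over Control, with its standard error as a bar; filled points passed an adjusted p of 0.05 in limma and open ones did not. Most genes of the Toll-induced list lie below 0 (median −1.25) and most of the Imd-linked list above it (median 4.69). IM18 (green, 3.39) lies among the Imd-linked genes, and IM33 (green, 0.42) is near 0, with no call read from it.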

How the data were processed

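Libraries of the 3′ ends of mRNAs (QuantSeq) were read on an Ion Proton by the authors, who mapped reads to dm6 with hisat2, passed unmapped reads to bowtie2 and used DESeq within metaseqR2 for differential expression. Each deposited value is a signal for 1 gene in 1 library, a normalized count that the authors obtained by scaling the read count by 1 factor per library and rounding. Their utr setting of metaseqR2 is stated; tool versions and how reads on shared exons were divided are not given in the sources used here. The totals of 932389 to 1031380 normalized counts set the precision of low values; reads are not independent molecules, and estimated reads carry counting error only.

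All 6 libraries were grouped by the genotype in the labels. Genes with a value above 9, the median, in at least 1 library were tested with limma 3.58.1 in R 4.3.3 on log2(value + 1), with a variance trend, two-sided, with Benjamini-Hochberg adjustment over 7155 genes. The labels do not say whether the libraries came from separate cultures of flies, and p-values measure the spread between these libraries. Simulated data were used to test the fit. TMM and RLE factors were computed on the deposited values by hand and not with the package the plan named, and no count model was run, since those values are not raw counts. Tables were made with Python 3.11.15, pandas 2.3.3, numpy 2.4.6 and scipy 1.17.1, and plots with matplotlib 3.10.9. Names, positions and exons came from Ensembl 115 on BDGP6.54, which matched 17520 of 17617 identifiers; its coordinates are those of dm6.

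The members and gene lists were chosen with earlier results of these data known. Genes named are IM33, IM18, the 5 most like each, the 5 highest of each library, the 3 nearest on each side, and the Toll, Imd and cell type marker lists (fat body, hemocyte, midgut, Malpighian tubule, neuron, ovary, hindgut and visceral muscle); any other was chosen after its values were seen, and not every gene the rule allows is described. Summed midgut markers were 174 to 374 in RasV12 and 77 to 684 in Control, neuron markers 21 to 56 in RasV12 and 21 to 51 in Control, and ovary markers 0 to 7 in RasV12 and 13 to 101 in Control. BaraA2, IM14 and nos found no match. The Kunitz signature and promoter motifs of the plan were not searched, as no sequences were used here. Alternatives were the pseudocount, the filters, gene length, scaling, limma-voom, the variance trend, a replicate block, each library left out, value per kb for ranks and, added after the data were examined, the summed IM18 and CG10332 values and IM33 over all 6 libraries.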

Additional observations from a re-analysis of the deposited data

How the results depend on the processing

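IM18 kept its direction and its call in every alternative run but 1: without the variance trend the log2 difference of 3.39 had an adjusted p of 0.0611 in limma. With each library left out it ran from 2.58 to 4.10. For IM33 without Control 1, the call at 0.75 was lost with no filter (0.75, adjusted p 0.167 in limma) and without the variance trend (0.75, adjusted p 0.209), and the difference ran from 0.61 to 0.82 with a further library left out. Over all 6 libraries it was 0.42, a description, as this includes the library that chose the gene. IM33 is shorter than 500 bp and got no value under the length filter. The count of genes called was 704 without the variance trend and 642 to 1292 with each library left out. Per kb, the rank of IM33 was 6 in RasV12 1, 6 in RasV12 2, 5 in RasV12 3 and 9 in Control 3, and that of IM18 in RasV12 1 was 1170. With 1 library left out, AttC ran from −2.10 to 0.033, lncRNA:CR40469 from −0.18 to 0.49, cad from −0.61 to 0.31 and Oatp58Dc from −1.17 to 0.13; none was called. Oatp58Dc was also at 0.23 with a pseudocount of 0.5 and in limma-voom. The causes were not tested.

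Over all genes tested, deviations of same-numbered libraries correlated at −0.05, 0.00 and −0.01. Such a correlation cannot show whether single genes share a replicate effect. IM18 rose with the replicate number in both genotypes, with 47, 127 and 350 in RasV12 and 3, 17 and 25 in Control. Whether same-numbered libraries were paired was not tested further. With the replicate block, 1058 genes were called in place of 1198. IM18 stayed at 3.39, with an SE of 0.36 in place of 0.71 (adjusted p 3.57e-05 in limma). IM33 without Control 1 was at 0.81 (adjusted p 0.0748 in limma). In that fit RasV12 1 was alone in its block and added nothing to the difference, which equals that without RasV12 1. The IM18 value in Control 1 rests on about 2 reads, among 686080 estimated reads on genes. Control 3, with 761090, had about 19 reads of IM18. The cause of this difference was not tested.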
